A study of Arabidopsis thaliana with 4 samples.

Results

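An unsaturated ketone, 3-hepten-2-one, was set directly against an unsaturated aldehyde, (E)-2-pentenal, in Arabidopsis thaliana seedlings exposed to the vapour for 30 min in a closed plastic box. The comparison uses 2 of the 4 arrays of the series, 1 for each compound, picked by their titles. Of 25418 gene loci with a probe, the 19420 whose signal was well above background on both arrays were compared. The values are differences of 3-hepten-2-one minus (E)-2-pentenal, and no control level is subtracted in them. For a gene with several probes, the probe used was the brightest over all 4 arrays, the control included.

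All plants were wild type, of the Columbia-0 ecotype. All had been sown on peat, held in dark cold (4 °C, 3 days) and then grown with 14 h of light and 10 h of darkness a day at 23 °C. The first group was exposed to 3-hepten-2-one and the second to (E)-2-pentenal, each at a nominal 10 µM, beside a crotonaldehyde array at the same nominal dose and an acetonitrile array without volatile. Acetonitrile was the solvent of every treatment, so all 4 groups received it. The dose came from 3 µl of a 1 M solution on paper in a lit box of 340 cm3 at 25 °C, and full evaporation would give 8.82 µM. RNA of at least 6 whole plants was pooled for each array. The compounds differ in the carbonyl group, a ketone in 3-hepten-2-one and an aldehyde in (E)-2-pentenal, and also in the length of the carbon chain, so an effect of either structural change cannot be told apart from the other.

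Both compounds are reactive electrophiles, in which a carbon-carbon double bond is conjugated with the carbonyl group. Leaves release such volatiles after wounding and lipid oxidation, and plants handle them by joining them to glutathione or sugars and by reducing the carbonyl or the double bond. Besides stress pathways, the text describes the circadian clock, a loop of factors of the morning and of the evening that repress or activate each other and set the daily course of many cold, light and defence genes.

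With 1 array for each treatment there was no spread between samples and no test was possible, so genes were called by size alone, at 2-fold or more, and the number of arrays limits the precision. Levels are scaled signals, in which 1000 is the 75th percentile of the array. The 2 arrays lay on 1 slide and were scanned together. Their 75th percentiles before scaling were 1531 for 3-hepten-2-one and 1518 for (E)-2-pentenal, and 74.4% and 73.9% of their spots were well above background. Repeat spots of a probe gave log2 differences with an SD of 0.139 (18 probes, 84 spots), and the scanner software put the median error of a gene's log2 difference at 0.20. These errors arise within arrays and leave out the variation between plants. Where another probe of a gene could be compared, it was also at least 2-fold apart in the same direction for 171 of 193 genes called higher and for 171 of 214 called lower. The crotonaldehyde array lay on another slide with another scan, so for its values slide and treatment cannot be told apart.

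The ketone array had 903 genes at least 2-fold higher than the aldehyde array (4.65% of those compared) and 828 at least 2-fold lower (4.26%), together 8.91%. The counts of every gene list below are to be read beside these shares. Differences of at least 4-fold were seen for 191 genes higher and 192 lower, and of at least 16-fold for 9 higher and 17 lower. The median over all genes was 0.00 on the log2 scale, with an SD of 0.65, and 9738 genes lay above 0. A further 473 genes were measured only on the ketone array, 202 of them at least 2-fold above what the aldehyde array allowed, and 337 only on the aldehyde array, 120 of them at least 2-fold. The genes nearest the rule had log2 differences of 1.0005 just inside and 0.998 just outside on the higher side. With the genes cut by mean level into 4 groups of 4855, the dimmest group held 383 of the higher and 302 of the lower genes, and the brightest held 189 of the higher and 155 of the lower genes.

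**Figure D1:**
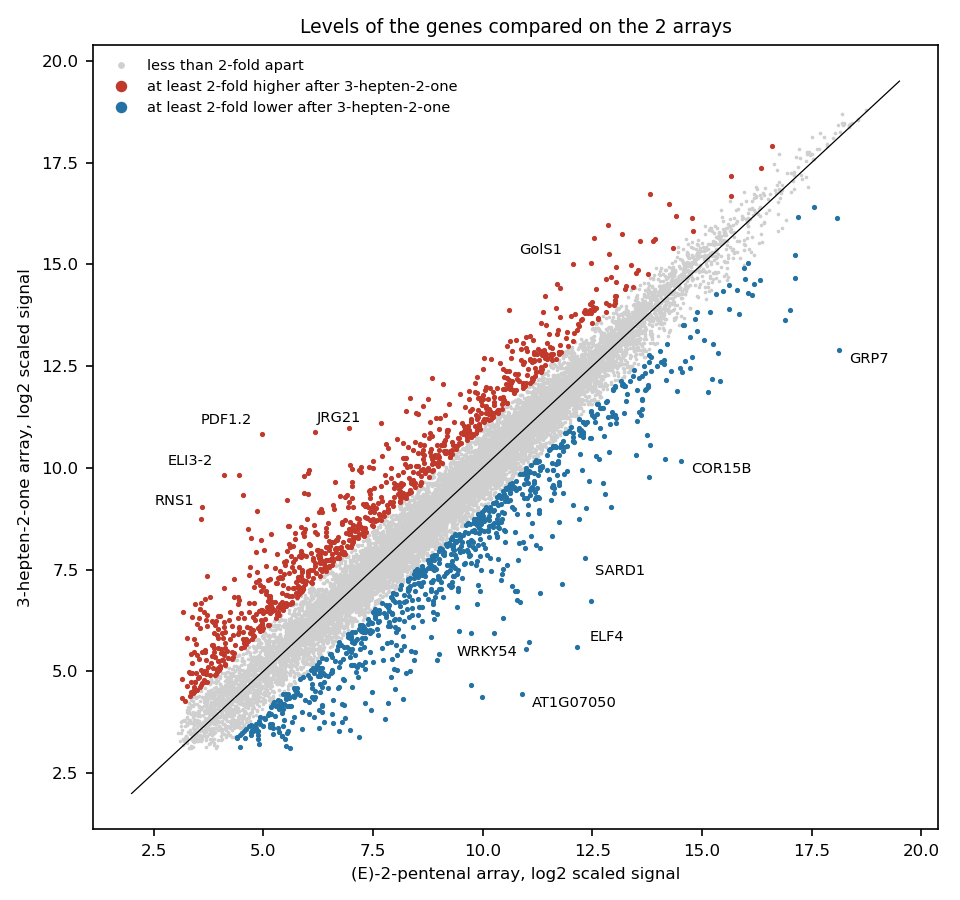
Log2 scaled signal of each gene on the 3-hepten-2-one array (vertical) and the (E)-2-pentenal array (horizontal), with 1 point for each of the 19420 genes and a line where both are equal. The 903 genes at least 2-fold higher after 3-hepten-2-one are red and the 828 lower are blue, with PDF1.2 and ELF4 among the farthest from the line.

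PDF1.2, a plant defensin, had 1815 on the 3-hepten-2-one array, against 31.3 on the (E)-2-pentenal array, 57.9-fold apart. ELI3-2, an alcohol dehydrogenase of the defence response, had 904 after the ketone and 17.2 after the aldehyde, 52.7-fold. RNS1, a secreted ribonuclease, had 526 after 3-hepten-2-one and 12.2 after (E)-2-pentenal. The level of ELI3-2 without volatile was 21.0 and that of RNS1 was 16.9, so the ketone array was the one that stood away from the control for these genes. For PDF1.2 it was the aldehyde array, since acetonitrile gave 1868. JRG21, a jasmonate-regulated gene, had 1885 on the ketone array, 71.9 on the aldehyde array and 176 without volatile. The calmodulin-like gene CML39 (AT1G76640) had 2021 on the ketone array, 125 on the aldehyde array and 288 on the control array.

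Some genes were measured on the ketone array only. BSMT1, a methyltransferase that makes methyl salicylate and methyl benzoate, reached 714 after 3-hepten-2-one and was not well above background after (E)-2-pentenal, at least 86.3-fold higher. The glucosyltransferase UGT76E12 was at least 38.5-fold higher, with 453 after 3-hepten-2-one. The terpene synthase TPS10 (AT2G24210) was at least 30.1-fold higher, with 249. BSMT1 and TPS10 both encode enzymes that make volatile products. UGT76E12 was as bright after crotonaldehyde, at 458.

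At the other end stood ELF4, a subunit of the evening complex of the clock, with 48.3 after 3-hepten-2-one and 4555 after (E)-2-pentenal, 94.2-fold lower. AT1G07050, a gene without a name in the annotation used, had 1906 after the aldehyde and was 87.9-fold lower after the ketone, and its probes gave log2 differences between −6.91 and −6.46. DJC76 (AT5G23240), a J protein, had 106 after the ketone and 5693 after the aldehyde. GRP7, an abundant RNA-binding protein of the clock's output, had 7580 after 3-hepten-2-one, against 284450 after (E)-2-pentenal, 37.5-fold lower, and its 3 probes spanned −5.71 to −5.07. COR27, a cold-regulated gene linked to the clock, was not well above background after the ketone and had 1340 after the aldehyde, at least 133-fold lower. For ELF4, AT1G07050, DJC76, GRP7 and COR27 the control lay near the aldehyde, with levels of 3526, 1195, 4986, 279339 and 824 without volatile.

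The clock lists ran in opposite directions. Of 18 evening clock genes compared, 10 were at least 2-fold lower after the ketone and 1 was higher, with a median of −1.02 and 4 members above 0, where 4.26% of all genes were lower. JMJD5, a jumonji protein of the evening, had 143 after 3-hepten-2-one and 3612 after (E)-2-pentenal. The other evening complex members were lower as well. BOA had 125 on the ketone array and 1767 on the aldehyde array, PCL1 (LUX) had 126 after the ketone and 1700 after the aldehyde, and ELF3 had 288 after the ketone and 1460 after the aldehyde. Among the pseudo-response regulators of the evening, PRR5 had 64.0 after the ketone and 701 after the aldehyde, and TOC1 had 319 after the ketone and 1295 after the aldehyde. PRR3 was not well above background after the ketone and had 437 after the aldehyde, at least 52.5-fold lower. GI, FKF1 and TEJ passed the rule by less, at 2.28-fold, 2.04-fold and 2.00-fold lower.

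Not every evening gene took part. The light-sensing F-box gene ZTL had 1342 after 3-hepten-2-one and 1261 after (E)-2-pentenal, and XCT had 1089 after the ketone and 1122 after the aldehyde. ELF4-L3, a relative of ELF4, went the other way, with 390 after the ketone and 133 after the aldehyde. ELF4-L1 had only a dim signal, 8.87 after the ketone, which was not well above background, and 26.1 after the aldehyde.

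Of 13 morning genes, 8 were at least 2-fold higher after the ketone and 1 was lower, with a median of 1.16 and 12 members above 0 (all genes 4.65% higher). PRR9, the first of the pseudo-response regulators in the day, had 188 after 3-hepten-2-one and 25.9 after (E)-2-pentenal. The LNK genes, coactivators induced by light, were all higher. LNK2 (AT3G54500) had 6671 on the ketone array and 1603 on the aldehyde array, and LNK4 had 9954 after the ketone and 3324 after the aldehyde. LNK1 and LNK3 were 2.98-fold and 2.78-fold higher. The central MYB factor CCA1 had 4265 after 3-hepten-2-one and 1482 after (E)-2-pentenal, 2.88-fold higher. Its partner LHY, at 3248 after the ketone and 1853 after the aldehyde, stayed under 2-fold. The related factor RVE2 was the exception, with 321 after the ketone and 2189 after the aldehyde, 6.82-fold lower.

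On the control array most morning genes lay between the 2 compounds. CCA1 had 2014 there and LNK3 had 3688. Most of the lower evening genes lay near their control level after (E)-2-pentenal, with 1152 for TOC1 and 1783 for PCL1 without volatile. For CCA1, LHY and ELF4 the crotonaldehyde array lay beyond the aldehyde array on the side away from the ketone, with 150, 41.9 and 11965. The time of day of the harvest is not given in the labels used here, and with 1 array a treatment it cannot be told apart from the compound.

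**Figure D2:**
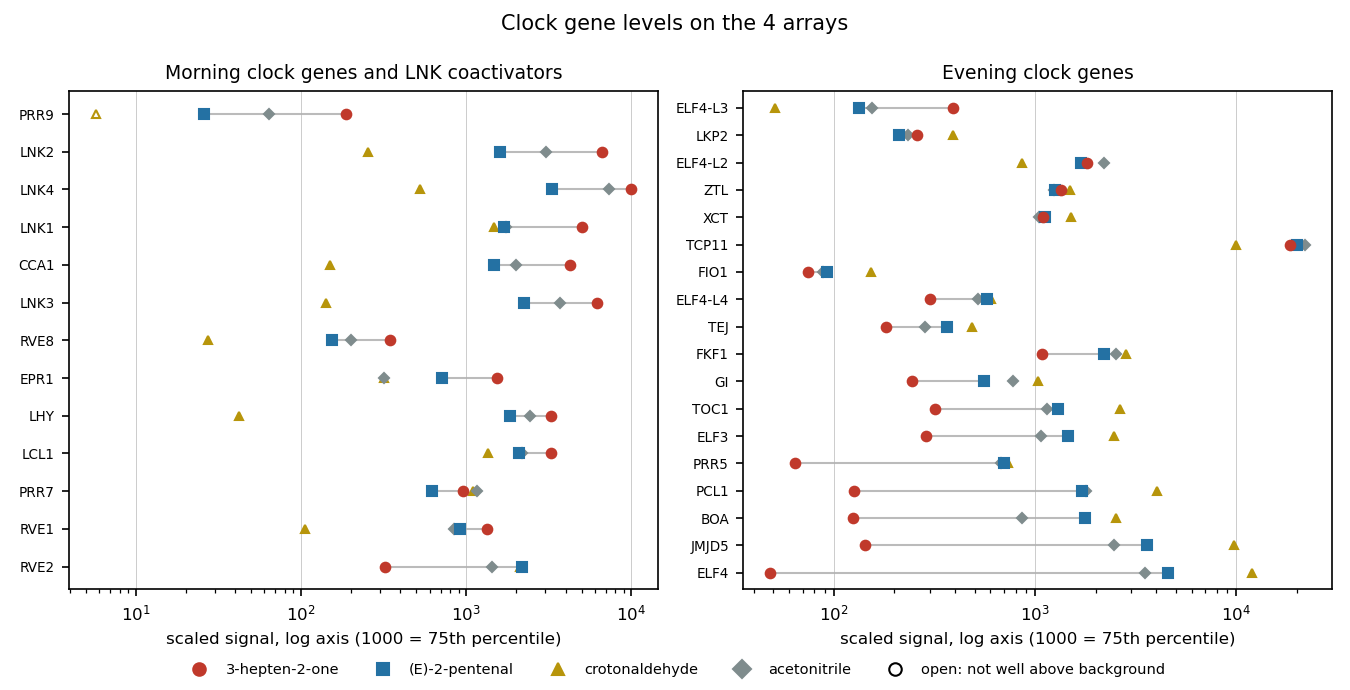
Scaled signal (log axis) of 13 morning and 18 evening clock genes, 1 point for each array, with a line between 3-hepten-2-one (red) and (E)-2-pentenal (blue), and open symbols for signals not well above background. The ketone lies right of the aldehyde for 12 morning genes and left of it for most evening genes, with ELF4 at 48.3 against 4555.

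The output genes of the daily cycle were mixed. Of 32 compared, 8 were higher and 6 lower (all genes 4.65% and 4.26%), with a median of 0.42. GRP8 (CCR1), the sister gene of GRP7, had 15331 after 3-hepten-2-one and 50119 after (E)-2-pentenal. Members on the lower side included flowering regulators. COL9 had 20.1 after the ketone and 292 after the aldehyde, CO had 12.3 after the ketone and 77.8 after the aldehyde, and the florigen gene FT had 22.6 after the ketone and 179 after the aldehyde. With the mean over its probes CO had a log2 difference of −1.83, against −2.66 on the brightest. The relatives COL1 and COL2 had log2 differences of 0.82 and 0.60, and the flowering repressors CDF1 and CDF2 had −0.21 and −0.17. On the higher side, ASN1, an asparagine synthetase of the dark and of low sugar, had 4804 after the ketone and 943 after the aldehyde. GBSS1, a starch synthase with a morning peak, had 4024 after the ketone and 1075 after the aldehyde, and CDF3, related to CDF1, had 3334 after the ketone and 1037 after the aldehyde. Crotonaldehyde gave 269 for ASN1 and 259 for GBSS1, and acetonitrile gave 2324 for ASN1 and 1481 for GBSS1.

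Several cold and drought regulators were lower on the ketone array. Of 10 CBF, DDF and cold regulators, 5 were at least 2-fold lower and none higher, with a median of −1.12 (all genes 4.26% lower), and CBF1 was measured on the aldehyde array only. Among genes above the median level, which leaves out the dimmer members, the list median was 0.026. DREB1A (CBF3) had 43.2 after 3-hepten-2-one and 518 after (E)-2-pentenal. CBF2 was 4.11-fold lower, with 95.2 after the ketone, and CBF1 was at least 37.2-fold lower, with 310 after the aldehyde. These 3 genes switch on the cold-responsive set. Their relatives CBF4, DDF1 and DDF2 were 8.12-fold, 7.67-fold and 10.0-fold lower. For these relatives the aldehyde array lay within 2-fold of the control and the ketone array below it. The upstream regulators ICE1, HOS1 and the calmodulin-binding CAMTA1, CAMTA2 and CAMTA3 lay between −0.20 and 0.58 on the log2 scale.

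The DREB2 factors, which serve heat and dehydration, had 3 of 6 lower and none higher (all genes 4.26% and 4.65%). DREB2A had 3809 after 3-hepten-2-one and 22004 after (E)-2-pentenal, and its 3 probes gave log2 differences of −2.53 to −2.43. Its level without volatile was 451 and after crotonaldehyde 41708, so both compounds lay above the control. DREB2C had 18.7 after the ketone, near its 16.8 in the control, and 160 after the aldehyde. DREB2B had 125 after the ketone, 695 after the aldehyde and 179 in the control.

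Among 30 COR, RD and dehydrin genes, the usual products of cold and drought signalling, 16 were lower and 4 higher (all genes 4.26% and 4.65%). Their median was −1.11, and 6 members lay above 0. COR15B, a protein that shields chloroplast membranes in the cold, had 1151 after 3-hepten-2-one and 23524 after (E)-2-pentenal, 20.4-fold lower. COR15A had 5957 after the ketone and 17932 after the aldehyde, but these 2 genes resemble each other and their probes may share signal. COR413IM1, of the chloroplast inner envelope, had 523 after the ketone and 7769 after the aldehyde, and the small membrane protein gene RCI2A had 7184 after the ketone and 42300 after the aldehyde. LTI78, also known as RD29A, had 980 after the ketone and 3112 after the aldehyde, against 3908 in the control. For COR15B, COR413IM1, RCI2A and LTI78 the aldehyde array lay within 2-fold of the control and the ketone array below it.

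The 4 exceptions were GolS1, LEA7, RD20 and RD26. GolS1, a galactinol synthase that is induced by heat, had 32702 after 3-hepten-2-one and 4251 after (E)-2-pentenal, 7.69-fold higher. The seed-type protein gene LEA7 had 132 after the ketone and 17.1 after the aldehyde. The caleosin gene RD20 had 14507 after the ketone and 5087 after the aldehyde, and the NAC factor gene RD26 had 2796 after the ketone and 1134 after the aldehyde. RD20 and RD26 are known targets of abscisic acid. The dehydrin gene RAB18 (AT5G66400), also such a target, had 883 after the ketone, 14176 after the aldehyde and 13740 in the control on its brightest probe, 16.1-fold lower. Its other 3 probes gave log2 differences of −0.39 to 0.04 and the mean over its probes was −1.09, so its call rests on 1 probe. RD22, another target, had a log2 difference of −0.15. The evening clock genes were low on the same array as the cold genes, and their part in this difference was not tested.

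The abscisic acid genes themselves were mixed. Of 36 compared, 5 were higher and 3 lower (all genes 4.65% and 4.26%), with a median of 0.15. NCED3, the enzyme that limits abscisic acid synthesis under drought, had 172 after the ketone and 47.9 after the aldehyde. The phosphatase gene HAI1 had 1055 after the ketone and 359 after the aldehyde, while the factor ABF1 had 263 after the ketone and 1059 after the aldehyde and the receptor gene PYL6 had 10.6 after the ketone and 43.1 after the aldehyde. Of the iron genes, 3 of 24 were higher and 2 lower. The ferritin gene FER1 had 9687 after 3-hepten-2-one, 2170 after (E)-2-pentenal, 214 after crotonaldehyde and 2039 without volatile.

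Of 16 salicylic acid genes compared, 4 were at least 2-fold lower after the ketone and none higher (all genes 4.26% and 4.65%). Their median was −0.34, and 6 members lay above 0. BSMT1, given above, and FMO1, a monooxygenase of systemic resistance with a dim 10.8 after the ketone, belong to the same list and were measured on the ketone array only. SARD1, which activates salicylic acid synthesis, had 220 after 3-hepten-2-one and 5164 after (E)-2-pentenal, 23.4-fold lower, with 641 in the control. NIMIN1, a partner of the receptor NPR1, had 122 after the ketone and 2534 after the aldehyde, with 379 in the control. NIMIN-2 had 471 after the ketone and 2500 after the aldehyde. PAD4, a lipase-like immune regulator, had 2172 after the ketone and 7661 after the aldehyde, with 2588 in the control. For SARD1, NIMIN1 and PAD4 the aldehyde array lay above the control. The isochorismate synthase genes ICS1 and ICS2 had log2 differences of 0.05 and 0.85, and the transporter gene EDS5 had 0.82.

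Of 25 WRKY factors, several of which act with salicylic acid, 7 were lower and 3 higher (all genes 4.26% and 4.65%). Their median was 0.04. WRKY54 had 46.5 after 3-hepten-2-one and 2018 after (E)-2-pentenal, 43.4-fold lower, with 519 in the control. Its close relative WRKY70 had 8384 after the ketone and 39196 after the aldehyde, with 11651 in the control. WRKY38 had 61.4 after the ketone and 1227 after the aldehyde, and its partner WRKY62 had 29.2 after the ketone and 142 after the aldehyde. WRKY51, WRKY60 and WRKY46 were 7.87-fold, 4.32-fold and 3.05-fold lower. WRKY30 was the highest of the 3 exceptions, with 946 after 3-hepten-2-one, 151 after (E)-2-pentenal and 26.6 in the control. The NAC factors NAC090 and NAC061, both among the 15 lowest genes, had 52.4 and 25.2 after the ketone, against 2143 and 849 after the aldehyde. PCC1, a small protein gene of pathogen and clock responses, had 12628 after the ketone and 122458 after the aldehyde.

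The jasmonate enzymes ran the other way. Of 22 genes of jasmonate synthesis and turnover, 9 were at least 2-fold higher after the ketone and none lower, with a median of 0.90 and 21 members above 0 (all genes 4.65% higher). AOS, which starts the branch from lipid hydroperoxides to jasmonate, had 74397 after 3-hepten-2-one and 21675 after (E)-2-pentenal, 3.43-fold higher. AOC1, the next enzyme, had 33527 after the ketone and 5682 after the aldehyde, and its probes gave log2 differences of 2.23 to 2.56. LOX2, the lipoxygenase upstream of both, had 215191 after the ketone and 110672 after the aldehyde, just under the rule. JAR1, which forms the active isoleucine conjugate, had 5558 after the ketone and 2326 after the aldehyde. Enzymes that remove the hormone were among those past the rule. CYP94B1 had 3049 after the ketone and 605 after the aldehyde, and ILL6 had 3333 after the ketone and 820 after the aldehyde. CYP94B3 and CYP94C1, which oxidise the active conjugate, had log2 differences of 0.73 and −0.36. Without volatile AOS had 30260 and AOC1 had 10101, so the ketone array lay above the control and the aldehyde array below it.

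The JAZ repressors and jasmonate factors had 1 of 19 higher, TIFY7 (JAZ9) with 16821 after the ketone and 7160 after the aldehyde, and a median of 0.50. Downstream, 9 of 18 defensins and storage proteins were higher and 3 lower (all genes 4.65% and 4.26%), with a median of 0.82. PDF1.2b had 431 after 3-hepten-2-one and 11.9 after (E)-2-pentenal, PDF1.3 had 945 after the ketone and 64.9 after the aldehyde, and PDF1.2c had 884 after the ketone and 61.3 after the aldehyde. These defensin genes are near copies of PDF1.2 and their probes may share signal. Their control levels, between 395 and 1868, lay near the ketone, and crotonaldehyde gave 29.9 to 85.2. The storage proteins VSP1 and VSP2, classic products of jasmonate signalling, were 2.50-fold and 2.82-fold higher, with 245784 and 146295 after 3-hepten-2-one and 98402 and 51951 after (E)-2-pentenal. The thionin gene THI2.2 had 9066 after the ketone and 1736 after the aldehyde. LCR69, PDF2.1 and LTP4 were the lower members, with log2 differences of −1.35, −1.23 and −1.06.

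Ethylene factors were divided. Of 32 compared, 4 were higher and 3 lower (all genes 4.65% and 4.26%), with a median of −0.04. RAP2.6 had 594 after the ketone and 46.2 after the aldehyde, and its relative Rap2.6L had 79.7 after the ketone and 11.6 after the aldehyde. RRTF1, a redox-responsive factor, was lower, with 1615 after the ketone and 4249 after the aldehyde. On 1 stretch of the genome the neighbours ESE1, TDR1, ERF1 and MYB15 were all higher, with 308, 6515, 2815 and 4826 after 3-hepten-2-one and 26.4, 1170, 1087 and 1440 after (E)-2-pentenal.

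**Figure D3:**
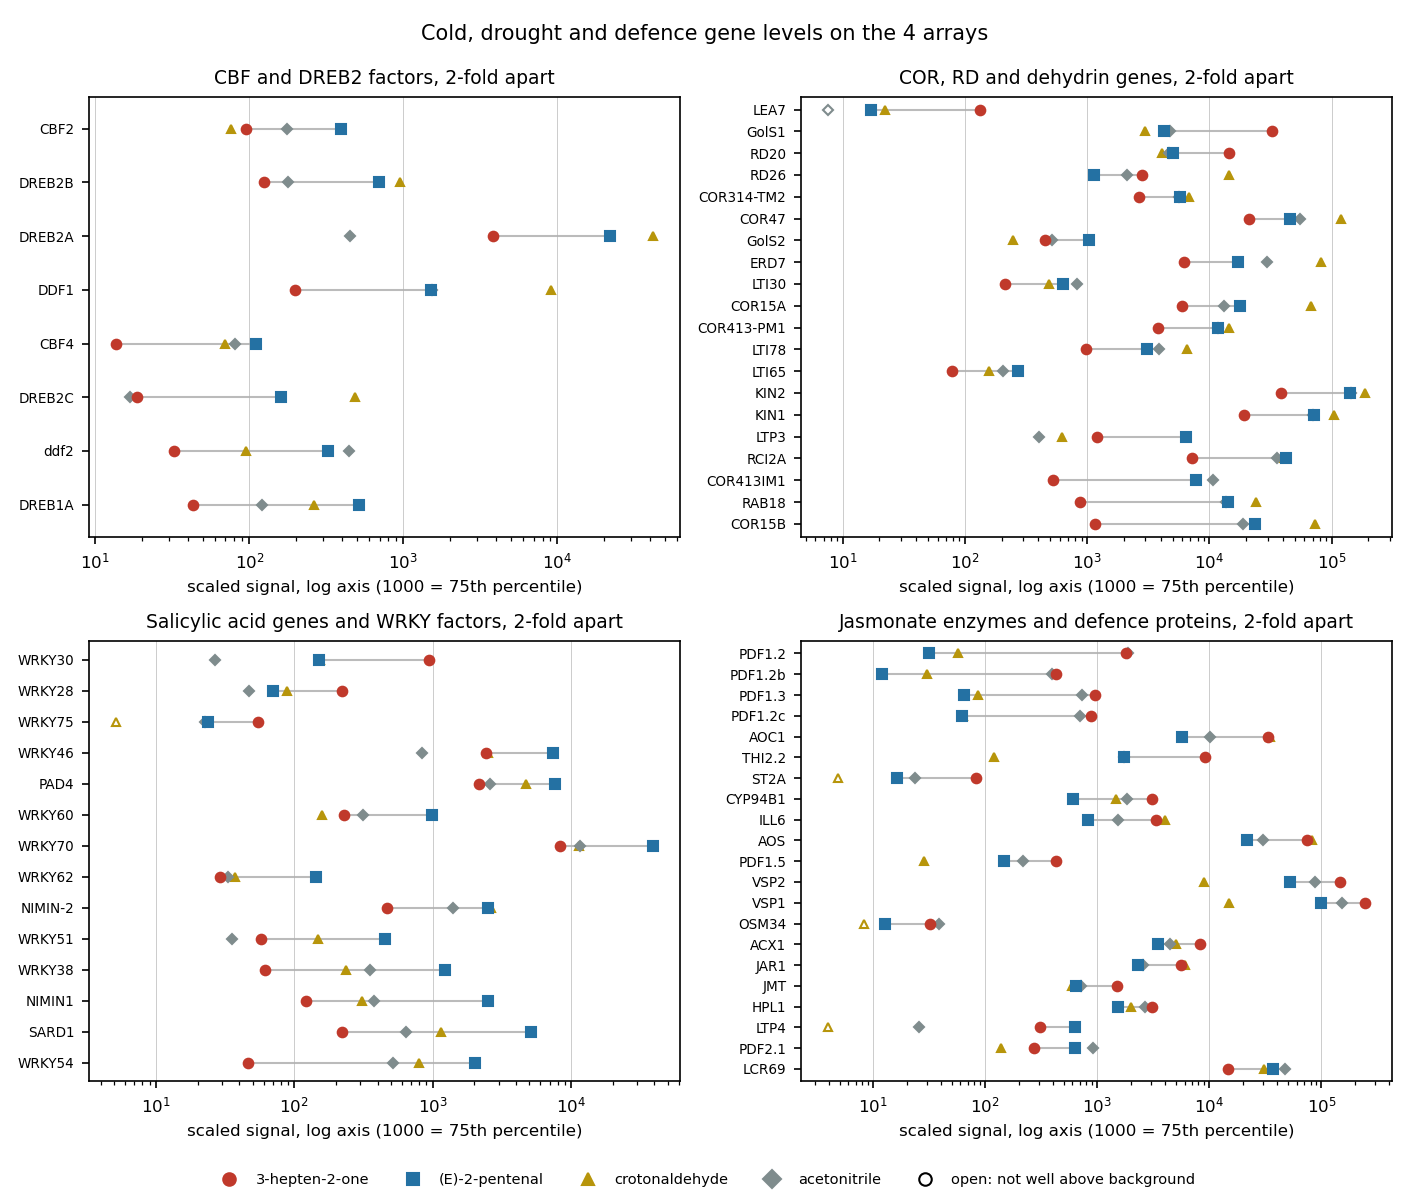
Scaled signal (log axis) of the members at least 2-fold apart, 1 point for each array, for cold and drought factors, their COR and RD products, salicylic acid genes with WRKY factors, and jasmonate enzymes with defence proteins. In the panels of cold factors, COR genes and salicylic acid genes the ketone (red) lies mostly left of the aldehyde (blue), as for COR15B at 1151 against 23524, and in the jasmonate panel mostly right of it, as for AOS at 74397 against 21675.

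Conjugation genes were higher after the ketone in part. Of 24 tau class glutathione S-transferases, enzymes that join electrophiles to glutathione, 7 were at least 2-fold higher and 1 was lower (all genes 4.65% and 4.26%). Their median was 0.56. GSTU8 had 997 after 3-hepten-2-one and 129 after (E)-2-pentenal, where the control also had 129. GSTU25 had 359 after the ketone and 61.8 after the aldehyde, and was not well above background in the control. GSTU4 had 1220 after the ketone and 303 after the aldehyde, with 152 in the control. GSTU24 had 4340 after the ketone and 2158 after the aldehyde, against 163 in the control, so it was high after both compounds. Several genes of this family resemble each other and their probes may share signal. Among 18 glutathione S-transferases of other classes 1 was higher and 2 were lower, GSTF2 at 4566 after the ketone and 18566 after the aldehyde, and GSTF3 at 316 after the ketone and 1277 after the aldehyde.

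Of 18 glucosyltransferases of small molecules, 5 were higher and none lower (all genes 4.65% and 4.26%), with a median of 0.50. UGT74E2, which joins glucose to an auxin, had 12598 after 3-hepten-2-one, 4826 after (E)-2-pentenal and 430 without volatile. UGT73C1 had 209 after the ketone and 85.4 after the aldehyde, and was not well above background in the control. Of 21 stress cytochromes P450, 5 were higher and none lower. CYP81D11, a gene of the response to electrophiles, had 19237 after the ketone, 8328 after the aldehyde and 243 in the control. The transporter gene ABCG40 had 637 after the ketone and 108 after the aldehyde.

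The enzymes that act on carbonyl groups showed no such shift as a list. Of 29 reductases and dehydrogenases, 1 was higher and 2 were lower (all genes 4.65% and 4.26%), with a median of −0.00. The higher one was ELI3-2. ALDH5F1, the succinic semialdehyde dehydrogenase, had 542 after 3-hepten-2-one and 4301 after (E)-2-pentenal, with 3887 in the control. ADH1, alcohol dehydrogenase, had 154 after the ketone and 512 after the aldehyde, with 481 in the control.

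Every one of the 23 genes compared for sulfate assimilation and glutathione lay above 0. Of these 8 were at least 2-fold higher and none lower (all genes 4.65% and 4.26%), with a median of 0.67. The pathway reduces sulfate to the sulfur of cysteine and glutathione. GGCT2;1 (AT5G26220), which recycles glutathione, had 3306 after 3-hepten-2-one and 432 after (E)-2-pentenal, 7.65-fold higher. ATSDI1, a marker of sulfur deficiency, had 9548 after the ketone and 2038 after the aldehyde. APR1, the reductase that controls the flux, had 24392 after the ketone and 8468 after the aldehyde, and APS1, which activates sulfate, had 21540 after the ketone and 9731 after the aldehyde. LSU1, a gene of low sulfur, had 12884 after the ketone, 4912 after the aldehyde and 1158 without volatile. For GGCT2;1, ATSDI1 and APS1 the aldehyde array lay near the control, at 552, 2270 and 9543.

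Of 25 flavonoid and anthocyanin genes, 10 were higher and 2 lower (all genes 4.65% and 4.26%). Their median was 0.90, and 22 members lay above 0. Enzymes of successive steps were apart by similar sizes. TT4, chalcone synthase, had 7732 after 3-hepten-2-one and 2459 after (E)-2-pentenal. F3H, a later enzyme of the core pathway, had 4361 after the ketone and 1602 after the aldehyde. DFR and LDOX, of the anthocyanin branch, had 3975 and 404 after the ketone, against 1285 and 126 after the aldehyde. The regulators PAP1 and TT8 were 2.17-fold and 2.26-fold higher. The 2 lower members belong to the flavonol branch, namely the factor MYB111, with 19.9 after the ketone and 71.7 after the aldehyde, and flavonol synthase FLS1, with 483 after the ketone and 1015 after the aldehyde. The control levels of TT4 and DFR lay near the aldehyde, at 2436 and 1246, and on the crotonaldehyde array DFR and LDOX were not well above background.

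**Figure D4:**
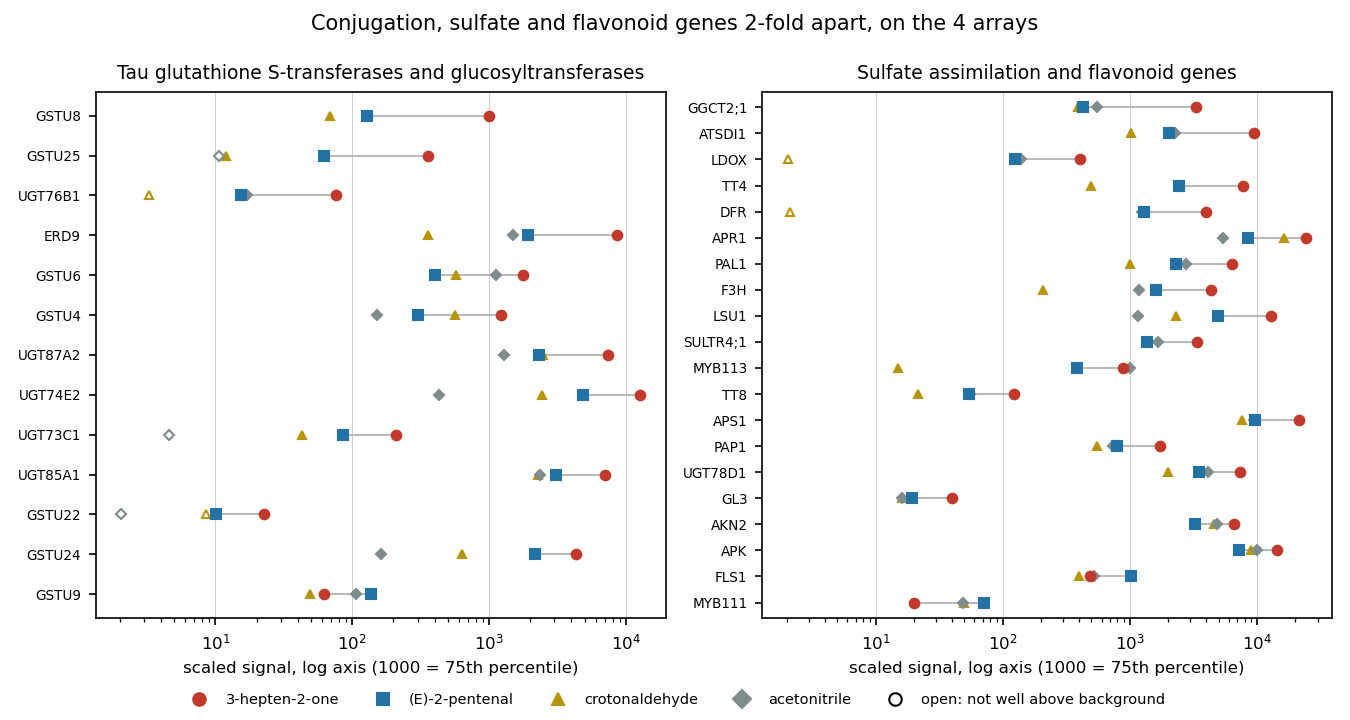
Scaled signal (log axis) of the members at least 2-fold apart, 1 point for each array, for tau class glutathione S-transferases with glucosyltransferases (left panel) and for sulfate assimilation with flavonoid genes (right panel). All but GSTU9, FLS1 and MYB111 have the ketone (red) right of the aldehyde (blue), as for GGCT2;1 at 3306 against 432.

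Among hormones of growth, auxin genes were most often higher. Of 31 compared, 10 were higher and 2 lower (all genes 4.65% and 4.26%), with a median of 0.45. The conjugating enzymes GH3.3, GH3.17 and DFL1 (GH3.6) had 1980, 959 and 2697 after the ketone, against 517, 291 and 835 after the aldehyde. BRU6 (GH3.2), of the same family, was the opposite, with 23.8 after 3-hepten-2-one and 255 after (E)-2-pentenal, and 20.7 in the control. The repressor gene AXR3 had 7894 after the ketone and 2035 after the aldehyde. Of 27 SAUR genes, which respond early to auxin, 3 were higher and none lower. SAUR20 had 243 after the ketone and 101 after the aldehyde, and both lay below the control at 1260.

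Other growth lists held few genes past the rule, where 4.65% of all genes were higher and 4.26% lower. With counts this small, the genes named are single examples and no result about their lists. Cytokinin genes had 2 of 21 higher and 1 lower, with CKX5, a cytokinin oxidase, at 522 after 3-hepten-2-one and 133 after (E)-2-pentenal. Gibberellin and brassinosteroid genes had 3 of 25 higher and 2 lower. RGL3, a DELLA repressor, had 273 after the ketone and 50.9 after the aldehyde, and the gibberellin receptor gene GID1B had 2230 after the ketone and 446 after the aldehyde. Wax genes had 2 of 28 each way. CER4, a reductase that makes wax alcohols, had 11.7 after the ketone and 125 after the aldehyde. Cell wall loosening genes had 1 of 31 higher and 2 lower, shares near or below those of all genes.

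Of the 7 small heat shock protein genes matched and compared, all lay below 0 and 2 were at least 2-fold lower, both among the 5 of class II and the organelles. Only 7 of 20 entries of these lists could be matched to a locus. HSP21, the small heat shock protein of chloroplasts, had 200 after 3-hepten-2-one and 766 after (E)-2-pentenal, and ATHSP22.0, of the endoplasmic reticulum, had 147 after the ketone and 633 after the aldehyde. Neither was well above background in the control. Of 13 HSP70 and BiP genes 2 were lower (all genes 4.26%), with Hsp70b at 1451 after the ketone and 3274 after the aldehyde. None of 19 HSP90, HSP101 and co-chaperone genes passed the rule in either direction. The median of this list lay above the control after both compounds, by 2.99 after the ketone and 2.72 after the aldehyde on the log2 scale. Of 18 heat shock factors 3 were lower, namely HSFA3, HSFA8 and HSF A4A, with 281, 744 and 4099 after the ketone, against 1027, 2248 and 9518 after the aldehyde. Their control levels were 767, 893 and 1358, so HSF A4A lay above the control after both compounds. Of 22 folding genes of the endoplasmic reticulum 2 were lower and none higher (all genes 4.26% and 4.65%), with a median of −0.11. P58IPK, the lowest of them, had 21086 after the ketone and 56791 after the aldehyde. The 24 proteasome genes, the 32 light-harvesting and Calvin cycle genes and the 17 reference genes had no member past 2-fold, with medians of 0.06, 0.32 and −0.10.

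**Figure D5:**
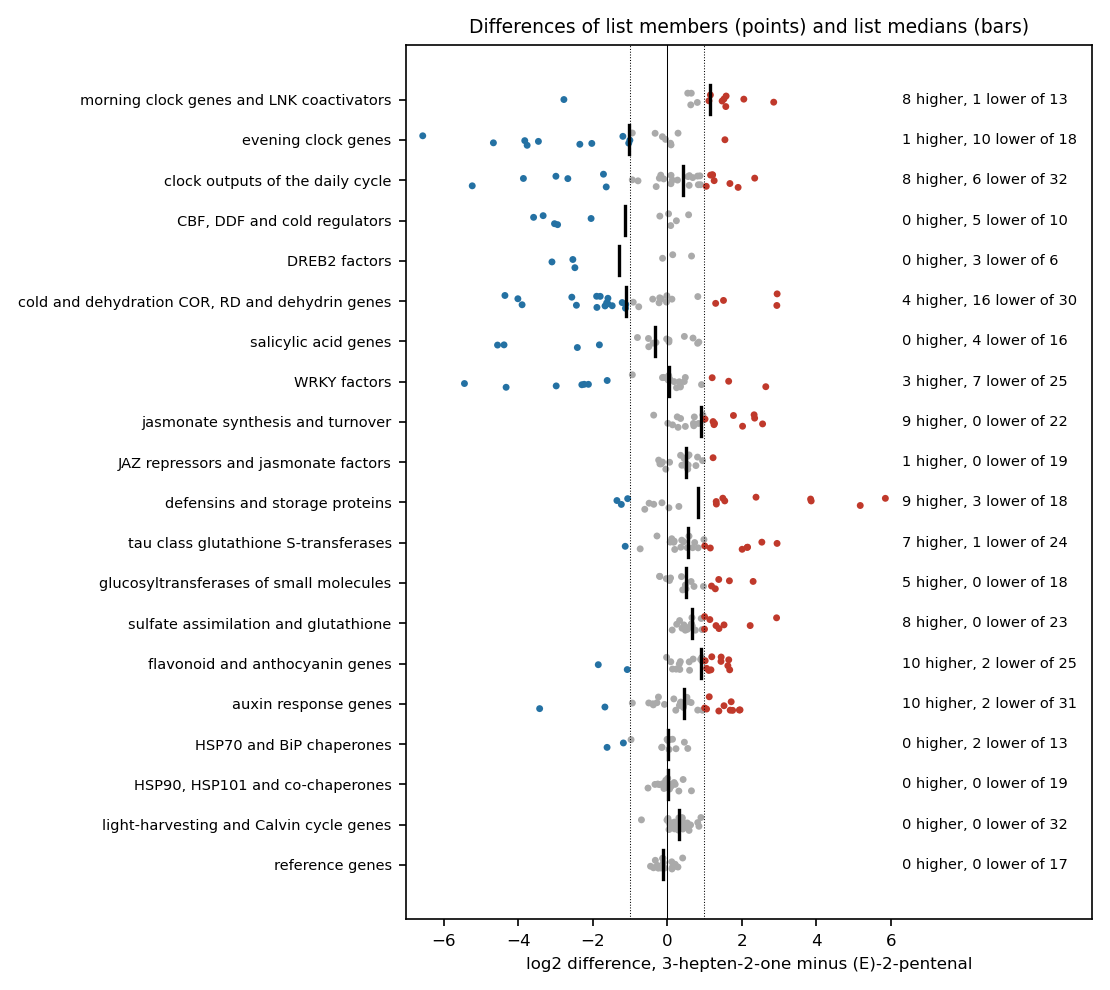
Log2 difference, 3-hepten-2-one minus (E)-2-pentenal, of the members of 20 gene lists (1 point a gene) with the list median as a bar and dotted lines at 2-fold. Counts at the right give the members at least 2-fold higher and lower, from 10 of 18 evening clock genes lower to none of 17 reference genes.

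The labelled tissue, whole seedlings, was checked against markers. All 9 leaf mesophyll markers, all 9 epidermis markers compared, 6 guard cell and 8 phloem markers were well above background on both arrays. None was 2-fold apart on its brightest probe. Other probes of the phloem marker NAKR1 gave log2 differences of up to 2.97, against −0.36 on its brightest. The mesophyll markers RCA and LHCB2.1 had other probes at up to 1.31 and 1.17. Of 10 root markers compared, 2 were higher after the ketone and 1 was lower (all genes 4.65% and 4.26%). PYK10, a root beta-glucosidase, had 31450 after 3-hepten-2-one, 8423 after (E)-2-pentenal, 56.4 after crotonaldehyde and 17818 without volatile. It made up most of the summed root marker level, which was 33125 after the ketone and 9768 after the aldehyde. CASP1, of the endodermis, was 2.41-fold lower, while SHR and SCR, the ground tissue regulators, were under 2-fold apart, and the root hair gene EXPA7 was not well above background on either array. In RNA of whole plants fewer cells of a type and less RNA in each cell cannot be told apart.

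Of 7 meristem and flower markers compared, 1 was higher and 2 were lower (all genes 4.65% and 4.26%), with a median of −0.10. AP1 was not well above background after 3-hepten-2-one and had 66.1 after (E)-2-pentenal and 60.3 in the control, at least 7.93-fold lower. AP3 was not well above background after the ketone and had 30.0 after the aldehyde. SEP1 had 18.3 after the ketone and 110 after the aldehyde, and PI had 20.2 after the ketone and 70.6 after the aldehyde. AG went the other way, with 44.8 after the ketone and 12.2 after the aldehyde, and TPD1 had 1399 after the ketone and 782 after the aldehyde. The mean over the 2 probes of AG gave a log2 difference of 0.52, under 2-fold, against 1.88 on the brighter one. SEP3 had 30.1 after the ketone and 32.3 after the aldehyde, while WUS and CLV3 were not well above background on either array. The part of flower buds in the floral genes, and of root tissue in PYK10, was not tested.

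The other 2 arrays place the genes called here, whose difference between the compounds was fixed by their choice. Of the 903 higher genes, 858 were also measured in the control. For these 3-hepten-2-one was at least 2-fold above the control in 492 and (E)-2-pentenal at least 2-fold below it in 178, where 6.43% of all genes were above the control after the ketone and 2.29% below it after the aldehyde. Their median differences from the control were 1.12 for the ketone and −0.42 for the aldehyde. Of 815 lower genes measured in the control, 3-hepten-2-one was at least 2-fold below it in 492 and (E)-2-pentenal at least 2-fold above it in 174, with medians of −1.17 for the ketone and 0.31 for the aldehyde. Shares over all genes were 4.79% below the control after the ketone and 4.42% above it after the aldehyde. Both differences share the control array. In both directions more genes had the ketone array away from the control than the aldehyde array. On the crotonaldehyde array 713 of the higher genes were measured, with 14.9% of them at least 2-fold above the control and 39.0% below it, where all genes gave 8.89% and 15.2%. Of 773 lower genes measured there, 30.3% were above the control and 11.1% below it.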

How the data were processed

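Labelled RNA of 4 samples was hybridised to 1 Agilent one-colour (Cy3) Arabidopsis array each. The scanner files were deposited with a processed signal, a spot intensity on a linear scale from which the authors' software had subtracted background within each array, per the file headers. Their headers give Agilent Feature Extraction 10.10.1.1 as the scanner software, and version 9.1 stands in the submitters' processing notes. The authors' value table equals the same intensity times 1 constant an array, 1.38 for 3-hepten-2-one and 1.45 for (E)-2-pentenal, and was used as an alternative. No source used here says how these constants were chosen.

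Of 43803 non-control spots an array, none was saturated. Outlier spots, 16 on the 3-hepten-2-one array and 10 on the (E)-2-pentenal array, were dropped, and repeat spots of 1 probe were averaged. Values were log2 of the signal minus the 75th percentile of the array, and a scaled signal is 1000 times the ratio to that percentile. Probes were matched through RefSeq accessions to loci and symbols of assembly TAIR10.1 (34476 spots, 25418 loci). A gene took its brightest probe over the 4 arrays, and its next brightest probe gave a log2 difference more than 1 away in 1.17% of 5959 genes. For genes measured on 1 side, the brighter level was divided by a floor, namely the dim array's weakest signal still well above background or the gene's own signal if higher (12.8 and 12.6 before scaling on the ketone and aldehyde arrays).

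The members and the 55 lists (1279 entries, 1198 matched to a locus) were chosen with earlier results of these data known, so no list is independent evidence. The naming rule took 15 genes at each end, the 5 largest bounds each way, as many as 5 members past 2-fold from every list, and any clock, cold or iron list member. Symbols shared by several loci, such as RAB18, were settled by locus. Further list members, AP1, AP3 and runs of neighbouring genes were named after their values were seen. Probes for near-identical genes can bind each other's RNA.

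Samples were grouped by title. Alternatives covered the background correction, scaling, dim-probe filter, probes of a gene, the authors' values and the size rule. Normexp took the median spot signal, since the mean spot signal was not found in the files. The steps were tested on simulated data. Promoter motifs, also planned, were not analysed here. Python 3.11.15 with numpy 2.4.6, pandas 2.3.3 and matplotlib 3.10.9, and R 4.3.3 with limma 3.58.1 were used.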

Additional observations from a re-analysis of the deposited data

How the results depend on the processing

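With 1 array for each compound no setting gives a p-value, and the alternatives show only how counts and sizes move with the processing. Against 903 genes higher and 828 lower, leaving out the filter on dim probes gave 1645 higher and 1234 lower of 25418, and keeping only genes of mean level above the median gene gave 294 and 337 of 9710. Size rules of 1.5-fold and 4-fold gave 2095 and 2051, and 191 and 192. Counts within 1.5 times came from normexp background correction (624 and 564), quantile normalization (845 and 888), median scaling (850 and 884), cyclic loess (858 and 883), genes measured on all 4 arrays (713 and 773), the mean over probes (934 and 806) and the authors' scaled values (829 and 925). The median of all genes lay between −0.05 and 0.02 over all settings. Of 493 alternative list medians 472 moved little, by less than 0.20 on the log2 scale, 20 moved more and 1 was reversed. Median scaling and the authors' values shift all genes alike by less than that, so their 55 medians each could only move little. List counts past the size rule were less steady. Of 1210 alternative counts, 987 stayed within 1.5 times the main count and 223 did not. These 223 include 59 and 49 from the size rules of 4-fold and 1.5-fold, 53 from genes above the median level and 19 from normexp. A median counted as reversed only if it changed sign and was at least 2-fold in the main analysis. Sign changes of smaller medians were not counted. The reversed one was the median of the CBF, DDF and cold regulators, 0.026 among genes above the median level, against −1.12. That setting leaves out the dimmer members. None of 1514 alternative values of 183 named genes changed sign, but many of them could not. The settings that only change which genes are kept repeat a gene's main value. These are 183 values without the dim-probe filter, 156 on all 4 arrays and 77 above the median level. Median scaling and the authors' values move every gene by the same small amount. Of all 1514 values 32 fell under 2-fold, 24 of them under normexp, 6 with the mean over probes and 2 under quantile normalization. The 2 probes of MAPKKK19 gave opposite signs, from −0.96 to 1.89. Dim genes, such as the floral and CBF genes on the ketone array, carry the least precise folds. No paired analysis was possible because each group had 1 array and the labels give no replicate numbers.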

Other observations

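Genes called alike often stood next to each other when the genes compared were ordered along the chromosome. Genes that were not compared were skipped, so such neighbours can have other genes between them. Of the 903 genes higher after 3-hepten-2-one, 220 (24.4%) had a neighbour in this order that was also higher, where 8.98% of all genes compared had one. Of the 828 lower genes, 147 (17.75%) had a lower neighbour, against 8.28%. Many such neighbours are tandem copies, whose probes may share signal. The jacalin lectin genes PBP1, JAL31, JAL33 and JAL34 were all higher, with 48428, 42.4, 1452 and 14648 after the ketone and 12269, 11.2, 316 and 2657 after the aldehyde. The myrosinase-binding genes MBP2 and MBP1, which act with the enzymes that break down glucosinolates, had 17227 and 3530 after the ketone, against 5796 and 1033 after the aldehyde. The methionine sulfoxide reductase genes MSRB4, MSRB5 and MSRB6, which repair oxidised protein, were 2.13-fold, 2.68-fold and 2.75-fold higher. The transporter gene ABCG16 had 109 after the ketone and 12.7 after the aldehyde, and its neighbours ABCG17 and ABCG18 were 2.80-fold and 2.14-fold higher. On the lower side the wall-associated kinases WAK3, WAK1 and WAK2 had 8.96, 969 and 263 after the ketone, against 46.1, 3866 and 526 after the aldehyde. The receptor-like kinases CRK5 and CRK6 were 3.90-fold and 3.14-fold lower, and the glycine-rich protein genes GRP9 and GRP-3 3.33-fold and 2.21-fold lower.

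Signalling and metabolic genes of further lists were named for the size of their difference. Stress kinases had 5 of 25 higher and 1 lower (median −0.09), and reactive oxygen enzymes 3 of 25 higher and 1 lower (−0.02). Ethylene synthesis and signalling had 2 of 18 higher and 1 lower (0.24), and glucosinolate and camalexin genes 2 of 19 each way (0.41). Of all genes 4.65% were higher and 4.26% lower. MPK11, a stress kinase, had 213 after 3-hepten-2-one, 1804 after (E)-2-pentenal and 534 without volatile, while MAPKKK18, a kinase of abscisic acid signalling, had 367 after 3-hepten-2-one, 86.5 after (E)-2-pentenal and 74.1 without volatile. The glutathione peroxidase gene GPX7 had 1020 after the ketone and 180 after the aldehyde, and the thioredoxin gene TH8 had 346 after the ketone and 61.2 after the aldehyde. ACS11, of ethylene synthesis, had 2873 after the ketone and 774 after the aldehyde, and ACO1, of the last step, had 38.9 after the ketone and 212 after the aldehyde. Of the tryptophan-derived glucosinolate regulators, MYB34 had 7535 after the ketone and 2076 after the aldehyde, while MYB51 had 990 after the ketone and 2827 after the aldehyde. DIN9, a gene of sugar starvation, had 1531 after the ketone and 223 after the aldehyde, but of 35 genes in that list only DIN9 and ASN1 were 2-fold higher and none was lower. Among 4403 probes without a single matched locus, 3.84% were higher and 3.41% lower.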
